A study of Homo sapiens with 21 samples.

Results

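Integrin subunit transcripts were followed in SK-MEL-147, an established human melanoma cell line, with sequencing of its poly-A RNA. The genes were 10 listed members of the integrin family among 26475 genes in the deposited table: the alpha subunits ITGA2, ITGA3, ITGA5, ITGA6, ITGA10 and ITGAV, and the beta subunits ITGB1, ITGB3, ITGB5 and ITGB8. They were chosen by name, with earlier results of these data known. Counts of called members beside the share of all genes are therefore descriptions. All 10 passed the filter on low counts that left 15062 genes for testing. Cells had been given TP-472, a ligand of the bromodomains of BRD7 and BRD9, GSK-591, a PRMT5 inhibitor, GSK-484, a PADI4 inhibitor, MS023, an inhibitor of type I arginine methyltransferases, JQ-1, a ligand of BET bromodomains, or UNC0642, an inhibitor of EHMT1 and EHMT2, and the remaining group was untreated. Each of the 7 groups held 3 libraries, called biological replicates. Whether they came from separate cultures is not stated, so the p-values speak only of the spread among libraries of the same group. Except where stated, that spread was estimated from all 7 groups together. The labels used here state no dose, no time and no vehicle.

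Integrins are adhesion receptors made of 1 alpha and 1 beta chain that span the membrane, bind the extracellular matrix outside the cell and link it to actin inside. ITGB1 is the common partner: with ITGA2 or ITGA10 it binds collagens, with ITGA3 or ITGA6 it binds laminins, and with ITGA5 it binds fibronectin. ITGAV pairs with ITGB1 and also with ITGB3, ITGB5 and ITGB8, which bind ligands such as vitronectin, and ITGAV with ITGB8 releases active TGF-beta from its latent complex. In melanoma, the pair of ITGAV and ITGB3 is known from tumours in their invasive growth phase.

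Libraries held between 20978182 and 78776788 expected counts. Of the melanoma markers, AXL averaged 1900 CPM (a count set against its TMM-adjusted library total). Of 8 melanocytic markers, 2 lay over 1 CPM, SOX10 at a mean of 438 CPM and MITF at 12.3 CPM. S100B and the pigment genes PMEL, TYR, TYRP1, DCT and MLANA averaged under 1 CPM. All 5 markers of undifferentiated melanoma lay over 1 CPM. Means over 1 CPM were found for 0 of 5 immune, 0 of 4 endothelial, 2 of 5 fibroblast (LUM and PDGFRB, with DCN at 0) and 1 of 5 epithelial markers (KRT8), and their part in the results was not tested. The untreated libraries stood apart from the treated ones in how counts depended on the GC content of the transcript. This slope, in log2 CPM per 10 percentage points of GC and relative to the mean of all 21 libraries, was -0.0387 to 0.123 in the 18 treated libraries and -0.179, -0.0975 and -0.115 in untreated replicates 1, 2 and 3. Each compound was therefore read in 4 fits: against untreated cells, the same after each library's GC trend was taken out, against the other treated groups except JQ-1 (for JQ-1, the other 5), and against those with the GC trend removed. All tests were two-sided edgeR quasi-likelihood tests with Benjamini-Hochberg adjustment over all genes tested, and a gene was called at an adjusted p under 0.05. Of all tested genes, CPM ranges did not overlap with those of untreated cells for 41.9% with TP-472, 42% with GSK-591 and 27.6% with GSK-484. With MS023 the share was 48.8%, with JQ-1 74.7% and with UNC0642 33.8%. Between GSK-591 and MS023 it was 29.5%. In bulk RNA, fewer cells with a transcript and less of it per cell cannot be told apart.

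The start-site windows of ITGA2, ITGA5 and ITGB8 are given as examples, picked with their values known, of members called in 1 direction in all 4 JQ-1 fits, ITGA2 higher and ITGA5 and ITGB8 lower in JQ-1 cells. Of the other members with a window, ITGA10, ITGB1 and ITGB5 were also called in 1 direction in all 4; they are counted below but not printed, since ITGA10 was rare and ITGB1 and ITGB5 have more than 1 window each. RefSeq windows on GRCh38.p14, from 250 bases before to 50 after each start, were found for 8 of the 10 members (13 windows), and not for ITGA3 and ITGB3. The window of ITGA2 is chr5:52989102-52989401 on the plus strand, that of ITGA5 chr12:54419217-54419516 on the minus strand and that of ITGB8 chr7:20330650-20330949 on the plus strand, each written 5′ to 3′ of its gene. Capitals mark matches to GGGCGG, the GC box, on either strand (CCGCCC on the other), and to TGANTCA, the AP-1 site.
ITGA2: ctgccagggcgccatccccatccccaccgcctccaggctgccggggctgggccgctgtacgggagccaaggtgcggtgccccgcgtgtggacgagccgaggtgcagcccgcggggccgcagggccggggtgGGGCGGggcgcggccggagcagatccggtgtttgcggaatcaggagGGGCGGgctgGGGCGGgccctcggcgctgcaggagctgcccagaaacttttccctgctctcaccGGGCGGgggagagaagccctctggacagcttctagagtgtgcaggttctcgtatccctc
ITGA5: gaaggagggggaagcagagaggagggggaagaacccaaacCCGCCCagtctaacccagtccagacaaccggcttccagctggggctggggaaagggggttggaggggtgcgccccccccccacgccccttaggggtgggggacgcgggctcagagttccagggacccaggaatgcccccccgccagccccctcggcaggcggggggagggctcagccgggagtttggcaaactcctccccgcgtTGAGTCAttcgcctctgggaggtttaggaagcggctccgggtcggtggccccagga
ITGB8: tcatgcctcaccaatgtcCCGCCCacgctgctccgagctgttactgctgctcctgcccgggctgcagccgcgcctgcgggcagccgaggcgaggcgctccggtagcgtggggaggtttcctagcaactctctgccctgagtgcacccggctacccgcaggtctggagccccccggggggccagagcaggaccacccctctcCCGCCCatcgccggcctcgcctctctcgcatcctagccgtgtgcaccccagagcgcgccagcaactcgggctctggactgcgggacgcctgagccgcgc
The ITGA2 window held 27 CpG dinucleotides and 4 GC boxes, that of ITGB8 held 28 and 2, and that of ITGA5 held 16 and 1, against a median of 14 CpG over all 35116 windows. ITGA5 alone held the AP-1 letters, in 1 of the 13 member windows, and 7.71% of all windows held them. GC boxes stood in 9 of the 13 member windows and in 45% of all windows. TATAAA was found in 2 of the 13 and in 11.5% of all, and CACGTG, an E box, in 1 of the 13 and in 7.26% of all, in both cases on either strand. These matches describe letters only.

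Levels between genes were compared per kilobase of the longest coding transcript. In untreated cells ITGB1 was the most abundant member at 648.8 ± 18.5 CPM per kb (SD, n = 3), followed by ITGA3 at 196.8 ± 6.0, ITGA5 at 99.6 ± 2.4, ITGA6 at 72.3 ± 5.2, ITGB5 at 42.7 ± 1.8, ITGB8 at 33.2 ± 3.4, ITGAV at 24.6 ± 3.1, ITGB3 at 10.8 ± 1.0, ITGA2 at 6.58 ± 0.68 and ITGA10 at 0.214 ± 0.049 CPM per kb. No neighbours in this order overlapped in any of the 7 groups. The order was the same in 6 groups, and in JQ-1 cells ITGAV (17.85 ± 0.22 CPM per kb) stood above ITGB8 (15.1 ± 0.46) and ITGA2 (8.31 ± 0.11) above ITGB3 (3.255 ± 0.050). With the length of all exons of a gene in place of the transcript, ITGAV stood above ITGB8 in every group, with overlapping ranges in GSK-591, GSK-484, MS023 and untreated cells, and ITGA6 stood above ITGA5 in JQ-1 cells and, with overlapping ranges, in untreated cells. ITGA10 rested on 10 to 100 counts per library, and the other 9 members on at least 378.

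**Figure D1:**
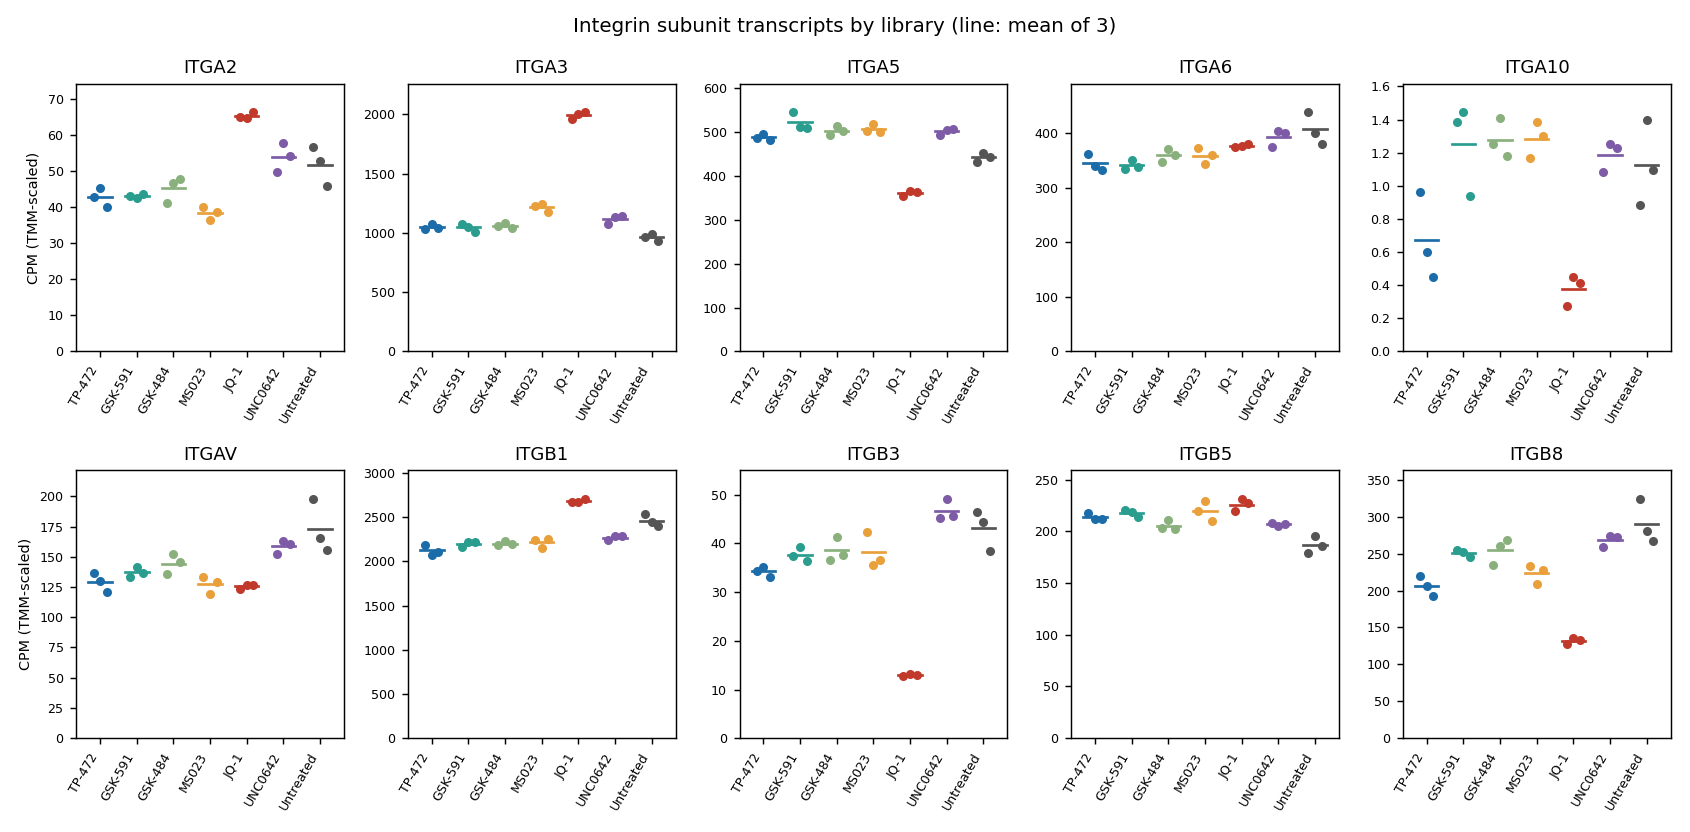
Level of each integrin gene in every library, in TMM-scaled CPM on axes that start at 0, with the groups along the x axis, 1 point per library and a line at the mean of 3. The JQ-1 libraries stand above all others for ITGA2, ITGA3 and ITGB1 and below all others for ITGA5, ITGA10, ITGB3 and ITGB8. For ITGA10 the gap is narrow, 0.4477 CPM in JQ-1 replicate 2 against 0.4489 CPM in TP-472 replicate 3.

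Against untreated cells, the largest changes of ITGA3, ITGA5, ITGA10, ITGAV, ITGB3, ITGB5 and ITGB8 among the 6 compounds were those with JQ-1. All 10 members were called against untreated cells, 4 higher and 6 lower, where 73.3% of all tested genes were called (35.7% higher and 37.6% lower). Each of the other 3 fits called 9 members: with the GC trend removed 75.5% of genes were called, against the other treated groups 77.8%, and with both 80.2%. Of the 10, 8 were called in 1 direction in all 4 fits, against 62.3% of the 14119 genes with a known GC content: ITGA2, ITGA3, ITGB1 and ITGB5 rose, and ITGA5, ITGA10, ITGB3 and ITGB8 fell. The median log2 fold change of the members was -0.20, and that of all genes -0.0064. With the GC trend removed these were -0.062 and 0.09. Against the other treated groups with it removed, the median of all genes was 0.091.

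Among the alpha subunits, the laminin-binding chain ITGA3 (hg38 chr17:50055968-50090481, plus strand) had 1958, 2001 and 2016 CPM in JQ-1 cells, against 966.9, 989 and 930.7 CPM in untreated cells. The groups were far apart and tight, a 2.07-fold rise (log2 fold change 1.05, SE 0.035, edgeR adjusted p 1.37e-17). ITGA2, a collagen-binding chain, had 65.15, 64.64 and 66.35 CPM in JQ-1 cells, against 56.63, 52.78 and 46.01 CPM in untreated cells. It was higher in every JQ-1 library, by 0.33 (SE 0.067, edgeR adjusted p 0.000108). Once the GC trend was removed the rise was 0.56 (SE 0.0585), where the median of all genes was 0.09. ITGA5, the fibronectin-binding chain, had 354.1, 364.7 and 364.3 CPM in JQ-1 cells, against 432, 453.3 and 442.1 CPM in untreated cells. Its fall of -0.29 (SE 0.033, edgeR adjusted p 2.73e-08) went with values that did not overlap.

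ITGA10, another collagen-binding chain, was rare: 10, 16 and 12 counts in JQ-1 cells, against 43, 51 and 44 counts in untreated cells. Scaled for depth these were 0.276, 0.448 and 0.412 CPM in JQ-1 cells and 0.887, 1.40 and 1.10 CPM in untreated cells, and the ranges did not overlap. The fall was -1.56 with a wide error (SE 0.298, edgeR adjusted p 4.05e-05). ITGAV fell to 123.7, 126.5 and 126.3 CPM in JQ-1 cells, against 197.7, 165.5 and 155.8 CPM in untreated cells (log2 fold change -0.46, SE 0.065, edgeR adjusted p 1.05e-06). It was lower in all JQ-1 libraries, but untreated replicate 1 was well above the other two, and ITGAV was not called in the fit against the other treated groups with the GC trend removed (-0.047, SE 0.039, edgeR adjusted p 0.269). ITGA6, a laminin-binding chain, changed least, at -0.11 (SE 0.046, edgeR adjusted p 0.0368), with 373.4, 376.7 and 379.6 CPM in JQ-1 cells and 437.7, 400.6 and 380.6 CPM in untreated cells. Its sign turned in the other 3 fits, to 0.082 with the GC trend removed, 0.071 against the other treated groups and 0.17 with both. The 0.082 lay below the median of all genes in that fit, 0.09, and with both that median was 0.091. The value with both was a call in the opposite direction (edgeR adjusted p 9.03e-06). The call of ITGA6 against untreated cells was lost without untreated replicate 1 (-0.053, edgeR adjusted p 0.294) and without any 1 of the JQ-1 replicates.

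Among the beta subunits, ITGB3 (chr17:47253846-47311816, plus strand) fell the most, with 12.81, 13.21 and 12.99 CPM in JQ-1 cells, against 46.48, 44.41 and 38.46 CPM in untreated cells. Every JQ-1 library held less than every other library of the series, a 3.32-fold lower level than in untreated cells (-1.73 on the log2 scale, SE 0.076, edgeR adjusted p 1.6e-15). GENCODE 29 places the exons of another gene, AC068234.1, over 2266 bases of ITGB3 on the same strand; the deposited table does not list that gene, so reads of the pair cannot be told apart. ITGB8 (chr7:20330702-20415754, plus strand) had 128.2, 136.2 and 132.7 CPM in JQ-1 cells, against 324, 280.5 and 267.3 CPM in untreated cells. Again no libraries overlapped, and the level was 2.20-fold lower (-1.14 on the log2 scale, SE 0.062, edgeR adjusted p 1.17e-13), with -0.87 (SE 0.045) once the GC trend was removed. ITGB5 rose to 219.1, 231.1 and 227.3 CPM in JQ-1 cells, against 179, 195 and 186 CPM in untreated cells (log2 fold change 0.28, SE 0.037, edgeR adjusted p 4.89e-07).

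ITGB1, the common partner, had 2675, 2673 and 2704 CPM in JQ-1 cells, against 2531, 2441 and 2394 CPM in untreated cells. It was higher in every JQ-1 library, by 0.13 (SE 0.030, edgeR adjusted p 0.000498). With the GC trend removed the rise was 0.36 (SE 0.024), where the median of all genes was 0.09. But with libraries scaled by total count the value was -0.015 (edgeR adjusted p 0.709). Under that scaling the median over all genes was -0.149, and relative to it ITGB1 was 0.13 higher. No other member changed direction with JQ-1 under that scaling.

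**Figure D2:**
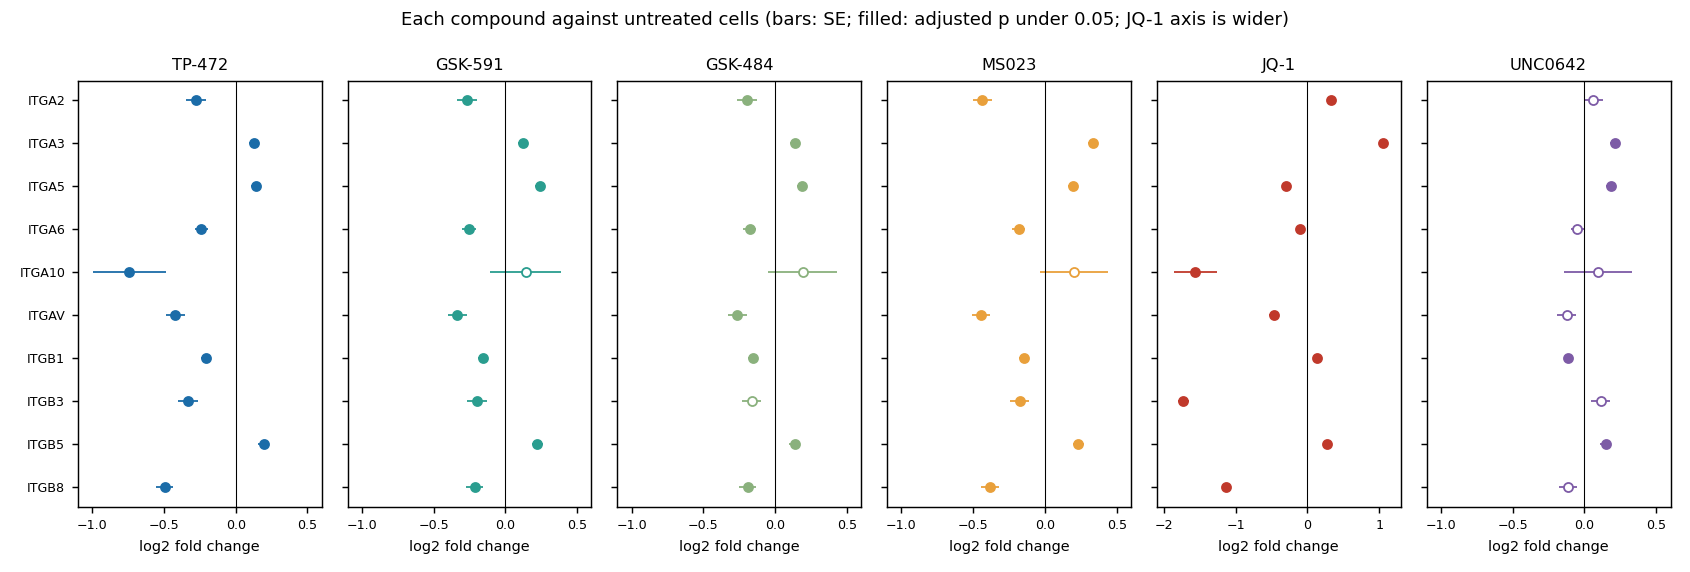
Log2 fold change of each integrin gene for each compound against untreated cells, with the standard error as a bar. Filled points have an adjusted p under 0.05, and the JQ-1 panel has a wider axis because its values run from -1.73 to 1.05, although ITGB1 with JQ-1 turned to -0.015 with total-count scaling.

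The proportions among ITGB3, ITGB5 and ITGB8 were different in JQ-1 cells. ITGB1, which also pairs with ITGAV and was far more abundant, is left out of this sum. Per transcript length, ITGB5 made up 73.8% ± 0.083 of the sum of ITGB3, ITGB5 and ITGB8 in JQ-1 cells and 49.3% ± 3.1 in untreated cells (SD, n = 3 each), and the other compounds lay between, at 52.8 to 60.4%. ITGB8 made up 21.6% ± 0.091 in JQ-1 cells and 38.3% ± 2.7 in untreated cells, and ITGB3 made up 4.65% ± 0.06 in JQ-1 cells and 12.4% ± 0.7 in untreated cells. The lowest ITGB5 share of the JQ-1 libraries, 73.7%, lay above the highest of the untreated ones, 51.4%. Within the 6 listed alpha chains, which leave out ITGA4, ITGA3 made up 70.0% ± 0.064 in JQ-1 cells and 49.2% ± 0.7 in untreated cells. ITGA5 made up 14.0% ± 0.065 in JQ-1 cells and 24.9% ± 1.0 in untreated cells. With the length of all exons, ITGA3 made up 61.2% in JQ-1 cells and 39.8% in untreated cells, and ITGB5 75% and 50% of its sum. The GC trend was not removed for any of these values. These shares count transcripts and not receptors, and with 3 libraries a group no exact permutation test of them was run.

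**Figure D3:**
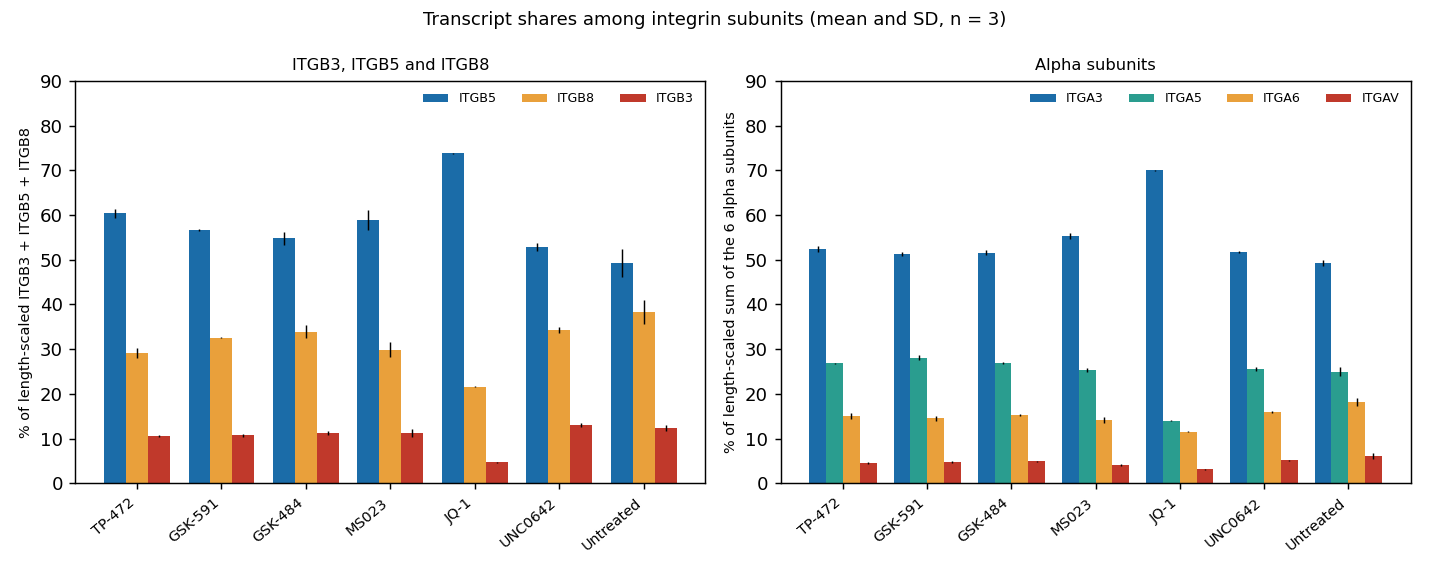
Mean share, in percent with the SD of 3 libraries as a bar, of ITGB3, ITGB5 and ITGB8 in the sum of these 3 (left) and of 4 of the 6 alpha chains (right) by group, from counts scaled by transcript length. In JQ-1 cells ITGB5 takes 73.8% of its sum and ITGA3 70.0% of the alpha sum, above every other group.

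With TP-472, all 10 members were called against untreated cells, 3 higher and 7 lower, where 31.8% of all tested genes were called (17.3% higher and 14.5% lower). The other fits called 7 members with the GC trend removed (10.8% of genes), 3 against the other treated groups (8.6%) and 6 with both (12.1%). ITGB8, ITGB3 and ITGA10 fell in all 4 fits, where 3.02% of genes with a known GC content were called in 1 direction in all 4. The median of the members was -0.26, and that of all genes 0.012.

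ITGB8 had 220, 206 and 192.7 CPM in TP-472 cells, against 324, 280.5 and 267.3 CPM in untreated cells. The groups did not overlap (-0.50, SE 0.061, edgeR adjusted p 1.74e-05), and the fall was -0.33 (SE 0.044) with the GC trend removed and -0.27 (SE 0.035) against the other treated groups with it removed. ITGB3 had 34.41, 35.13 and 33.19 CPM in TP-472 cells, against 46.48, 44.41 and 38.46 CPM in untreated cells. It was lower in every TP-472 library (-0.33, SE 0.067, edgeR adjusted p 0.000835), and its 4 fits ran from -0.39 to -0.23. ITGA10 had 37, 29 and 17 counts in TP-472 cells and 43, 51 and 44 counts in untreated cells. In CPM these overlapped, 0.965, 0.598 and 0.449 CPM in TP-472 cells and 0.887, 1.40 and 1.10 CPM in untreated cells, and the call (-0.74, SE 0.256, edgeR adjusted p 0.0303) was lost without TP-472 replicate 2, without TP-472 replicate 3 and without untreated replicate 2.

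ITGAV had 136.7, 130.3 and 121.2 CPM in TP-472 cells, against 197.7, 165.5 and 155.8 CPM in untreated cells, with no overlap (-0.42, SE 0.065, edgeR adjusted p 9.55e-05). It was called in every fit but that against the other treated groups (-0.13, SE 0.052, edgeR adjusted p 0.133). ITGB1 had 2188, 2076 and 2109 CPM in TP-472 cells and 2531, 2441 and 2394 CPM in untreated cells, a fall of -0.21 (SE 0.030, edgeR adjusted p 5.07e-05) that was -0.077 (SE 0.024, edgeR adjusted p 0.0421) with the GC trend removed. ITGA2 (-0.28, SE 0.068) and ITGA6 (-0.24, SE 0.046) also fell. After removal of the GC trend ITGA6 was still called (-0.15, SE 0.038, edgeR adjusted p 0.014) and ITGA2 was not (-0.15, SE 0.059, edgeR adjusted p 0.122). The 3 rises were ITGB5 (0.20, SE 0.037), ITGA5 (0.14, SE 0.032) and ITGA3 (0.13, SE 0.035). In the GC-corrected fit ITGB5 was called at 0.11, while ITGA5 and ITGA3 turned to -0.022 and -0.074 without a call. Against the other treated groups with the GC trend removed, ITGA3 was called lower in TP-472 cells (-0.083, SE 0.027, edgeR adjusted p 0.0452).

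**Figure D4:**
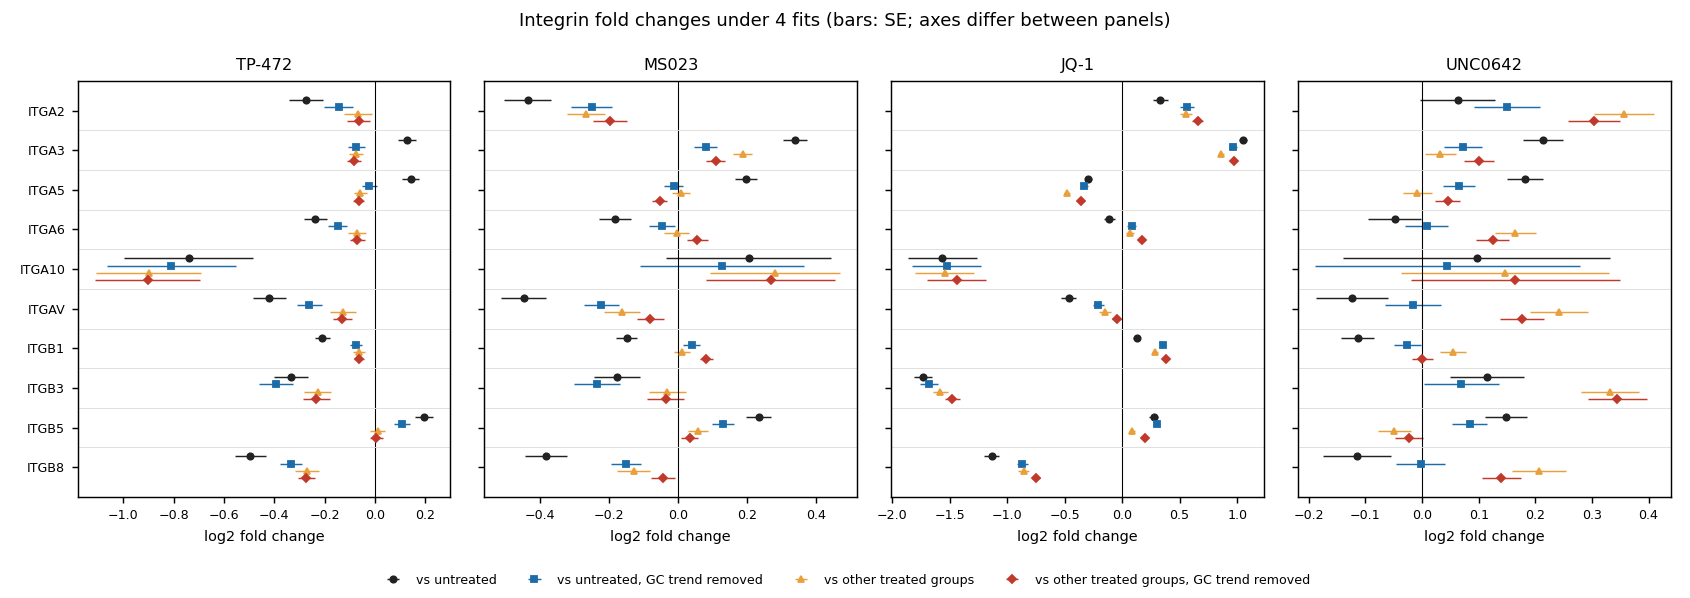
Log2 fold change of each integrin gene, with its standard error as a bar, for TP-472, MS023, JQ-1 and UNC0642 in 4 fits that differ in the cells they are set against and in whether the GC trend of each library was removed; axes differ between panels. ITGB3 and ITGB8 lie below 0 in all 4 fits with TP-472 and with JQ-1, and with UNC0642 ITGA2 runs from 0.063 against untreated cells to 0.36 against the other treated groups.

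TP-472 and JQ-1 both bind bromodomains, of different proteins, and were set against each other directly. Untreated cells are not a side of this comparison, but the filter, scaling and estimate of spread came from all 21 libraries. Of the 10 members 8 were called, 4 higher and 4 lower in TP-472 cells, where 72.3% of all tested genes were called (37.5% higher and 34.8% lower). Removal of the GC trend gave 9 called members, where 75.5% of genes were called and the median of all genes was -0.086. ITGB3 averaged 34.2 ± 0.98 CPM in TP-472 cells and 13 ± 0.20 CPM in JQ-1 cells (SD, n = 3 each), 2.63-fold higher in TP-472 cells (log2 difference 1.40, SE 0.077, edgeR adjusted p 1.03e-13). ITGB8 was higher by 0.64 (SE 0.062), ITGA5 by 0.43 (SE 0.033) and ITGA10 by 0.82 (SE 0.311), the last with a call that was lost without TP-472 replicate 1 and without JQ-1 replicate 1. ITGA3 averaged 1051 ± 21 CPM in TP-472 cells and 1992 ± 30 CPM in JQ-1 cells, and was lower in TP-472 cells by -0.92 (SE 0.035, edgeR adjusted p 1.52e-16). ITGA2 was lower by -0.61 (SE 0.068) and ITGB1 by -0.34 (SE 0.030). ITGA6 was lower by -0.13 (SE 0.046), but with total-count scaling it stood at 0.0066 (edgeR adjusted p 0.909) and its call was lost without TP-472 replicate 2 and without TP-472 replicate 3. ITGAV differed by 0.044 (SE 0.066, edgeR adjusted p 0.552) and ITGB5 by -0.080 (SE 0.037, edgeR adjusted p 0.0555), neither called. With total-count scaling ITGAV was called, at 0.18 (edgeR adjusted p 0.0175), and with the GC trend removed ITGB5 was called, at -0.19 (edgeR adjusted p 7.71e-06).

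The inhibitors of arginine methyltransferases, GSK-591 and MS023, share the same untreated libraries with each other and with the other compounds. With GSK-591, 9 members were called, 3 higher and 6 lower, where 32.9% of all tested genes were called (18.1% higher and 14.8% lower). With MS023, 9 were called, 3 higher and 6 lower, where 42.6% of all tested genes were called (22% higher and 20.6% lower). ITGA10 was the member not called in either, at 0.14 (SE 0.248) with GSK-591 and 0.20 (SE 0.238) with MS023.

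ITGA2 had 40.05, 36.51 and 38.59 CPM in MS023 cells, against 56.63, 52.78 and 46.01 CPM in untreated cells. The groups did not overlap, and it was the member that fell in all 4 MS023 fits, from -0.44 (SE 0.068, edgeR adjusted p 2.88e-05) against untreated cells to -0.20 (SE 0.048, edgeR adjusted p 0.00847) against the other treated groups with the GC trend removed, where 5.45% of genes with a known GC content were called in 1 direction in all 4. ITGA3 had 1229, 1244 and 1177 CPM in MS023 cells, against 966.9, 989 and 930.7 CPM in untreated cells, a rise of 0.34 (SE 0.035, edgeR adjusted p 3.59e-07). It was called in 3 of the 4 fits and missed the threshold when only the GC trend was removed (0.080, SE 0.034, edgeR adjusted p 0.115). ITGAV (-0.45, SE 0.065) and ITGB8 (-0.38, SE 0.061) fell, and ITGB5 (0.23, SE 0.037) and ITGA5 (0.20, SE 0.032) rose. ITGA6 (-0.18, SE 0.046) and ITGB3 (-0.18, SE 0.067) fell too, ITGB3 with overlapping ranges and a call lost in 4 of the 6 fits that left out 1 library. Once the GC trend was removed, MS023 left 5 members called, ITGA2, ITGAV, ITGB3 and ITGB8 lower and ITGB5 higher, where 15.7% of genes were called. Against the other treated groups it left 3 (18.9% of genes), and with both 3 (14.4% of genes). ITGB1, at -0.15 (SE 0.030) against untreated cells, stood at 0.083 (SE 0.019, edgeR adjusted p 0.00472) in the fit against the other treated groups with the GC trend removed.

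With GSK-591, ITGAV had 133.5, 141.8 and 136.9 CPM against 197.7, 165.5 and 155.8 CPM in untreated cells (-0.33, SE 0.065, edgeR adjusted p 0.000542), and ITGA6 had 333.7, 350.3 and 338.5 CPM against 437.7, 400.6 and 380.6 CPM in untreated cells (-0.25, SE 0.046, edgeR adjusted p 0.000295). Both sets of libraries were apart. ITGA5 had 545, 512.4 and 508.8 CPM in GSK-591 cells, against 432, 453.3 and 442.1 CPM in untreated cells, a rise of 0.24 (SE 0.033, edgeR adjusted p 2.45e-05), and ITGB5 rose by 0.22 (SE 0.037). ITGA3 rose by 0.12 (SE 0.035), with a call lost without GSK-591 replicate 1 and without untreated replicate 3. ITGA2 (-0.27, SE 0.069), ITGB8 (-0.21, SE 0.061), ITGB3 (-0.20, SE 0.068) and ITGB1 (-0.16, SE 0.030) fell, ITGB3 with overlapping ranges. Removal of the GC trend left 4 members called, ITGA6, ITGAV and ITGB3 lower and ITGB5 higher, where 12.5% of genes were called. Against the other treated groups edgeR called 0 of 10 members, with 3 at an unadjusted p under 0.05, where 7.54% of genes were called, and with both it called 1 (ITGA3, -0.090), where 11.3% were. No member was called in all 4 GSK-591 fits, where 3.43% of genes were. Against untreated cells and without untreated replicate 1 edgeR called 6 members and 3243 of 15062 genes, against 4952 genes with all libraries, with ITGA2 (-0.19), ITGB3 (-0.14) and ITGB8 (-0.13) no longer past the threshold.

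Set against each other, GSK-591 and MS023 differed in 1 member, where 9.89% of all tested genes were called (5.43% higher and 4.46% lower), and with the GC trend removed it was again 1, where 10.8% were. ITGA3 averaged 1046 ± 34 CPM in GSK-591 cells and 1217 ± 35 CPM in MS023 cells (SD, n = 3 each), with no overlap, and was lower in GSK-591 cells by -0.22 (SE 0.035, edgeR adjusted p 0.000388). ITGA2 (0.17, SE 0.070) and ITGB8 (0.17, SE 0.061) were next in size, and neither was called (edgeR adjusted p 0.134 and 0.0869).

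With GSK-484, 8 members were called, 3 higher and 5 lower, where 19.1% of all tested genes were called (11.4% higher and 7.66% lower). ITGA5 averaged 503 ± 10 CPM in GSK-484 cells and 442.5 ± 11 CPM in untreated cells (0.19, SE 0.032, edgeR adjusted p 0.00156), and ITGB1 averaged 2201 ± 24 CPM in GSK-484 cells and 2455 ± 70 CPM in untreated cells (-0.16, SE 0.030, edgeR adjusted p 0.00203). Neither overlapped between the groups. ITGA3 (0.14, SE 0.035) and ITGB5 (0.14, SE 0.037) rose, and ITGAV (-0.26, SE 0.065), ITGA2 (-0.195, SE 0.068), ITGB8 (-0.19, SE 0.061) and ITGA6 (-0.18, SE 0.046) fell, ITGA2 and ITGB8 with overlapping ranges. ITGB3 (-0.16, SE 0.067) and ITGA10 (0.19, SE 0.239) were not called. In each of the other 3 fits edgeR called 0 members: 4 had an unadjusted p under 0.05 with the GC trend removed, 3 against the other treated groups and 1 with both, where 0.305%, 0.126% and 0.255% of genes were called, and 0% in all 4. DESeq2, run on the fit against untreated cells, called 8. Without untreated replicate 1 the count against untreated cells was 3 (ITGA3, ITGA5 and ITGB1), where 918 of 15062 genes were called, and without GSK-484 replicate 1 it was 5, where 1548 were, against 2872 with all libraries.

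With UNC0642, 4 members were called against untreated cells, where 16.3% of all tested genes were called (8.71% higher and 7.54% lower). ITGA3 had 1073, 1130 and 1144 CPM in UNC0642 cells, against 966.9, 989 and 930.7 CPM in untreated cells, and rose without overlap (0.21, SE 0.035, edgeR adjusted p 0.000835). ITGA5 (0.18, SE 0.032) and ITGB5 (0.15, SE 0.037) rose and ITGB1 (-0.11, SE 0.030) fell. After removal of the GC trend edgeR called 0 of 10, with 4 at an unadjusted p under 0.05, where 2.59% of genes were called, and no member was called in all 4 fits, where 1.22% were.

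Set against the other treated groups except JQ-1, UNC0642 cells held more of 5 members, where 27.5% of genes were called. ITGA2 had 49.85, 57.81 and 54.37 CPM in UNC0642 cells, above each of the 12 TP-472, GSK-591, GSK-484 and MS023 libraries, whose values ran from 36.5 to 47.9 CPM (0.36, SE 0.053, edgeR adjusted p 0.00012). ITGB3 had 45.13, 49.11 and 45.65 CPM in UNC0642 cells, again above all 12 of those libraries, whose highest was 42.4 CPM (0.33, SE 0.052, edgeR adjusted p 0.000171). ITGAV (0.24, SE 0.051), ITGB8 (0.21, SE 0.048) and ITGA6 (0.16, SE 0.036) were also higher. All 5 were called with the GC trend removed as well, together with ITGA3 (0.10, SE 0.027, edgeR adjusted p 0.00798), where 27.5% of genes were called. Against untreated cells none of these 5 was called, and ITGA2 stood at 0.063 (SE 0.066), ITGB3 at 0.11 (SE 0.065) and ITGAV at -0.12 (SE 0.064).

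The members fell into a GC-poor group, ITGB8, ITGAV, ITGB1, ITGA2 and ITGA6, with transcripts of 37.8 to 42.9% GC, and a GC-rich group, ITGB3, ITGA10, ITGB5, ITGA5 and ITGA3, with 52.3 to 60.9% GC. Across the 10 genes the fold changes against untreated cells had a Pearson correlation with GC content of 0.929 for UNC0642, 0.910 for MS023, 0.875 for GSK-484, 0.856 for GSK-591, 0.532 for TP-472 and 0.126 for JQ-1. The 10 points of a compound share its 3 libraries, and all compounds share the untreated libraries. Over all 14119 genes with a known GC content the Spearman correlation was 0.541 for UNC0642, 0.682 for MS023, 0.644 for GSK-484, 0.618 for GSK-591, 0.621 for TP-472 and 0.191 for JQ-1. With TP-472, ITGB3 and ITGA10 lay below the other GC-rich members, and with JQ-1 ITGB3 and ITGA10 were the lowest of all 10.

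**Figure D5:**
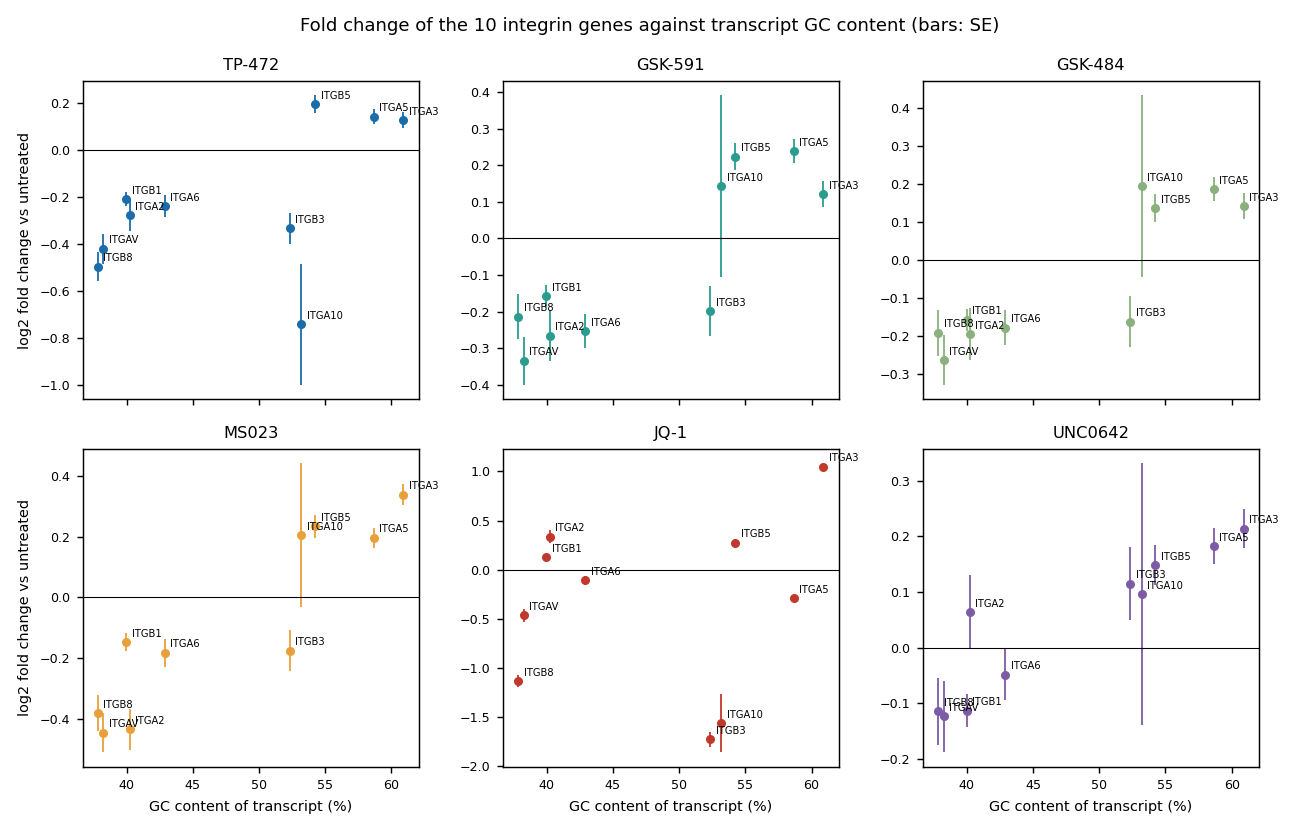
Log2 fold change of each integrin gene against untreated cells (y axis, SE as a bar) against the GC content of its longest coding transcript in percent (x axis), 1 panel per compound with its own y axis. With GSK-591, GSK-484, MS023 and UNC0642 ITGA3, ITGA5 and ITGB5 lie above the 5 GC-poor genes (Pearson 0.856 to 0.929, 10 genes), and with JQ-1 the correlation is 0.126.

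Of 16 other integrin subunits 8 passed the filter, and the other 8, ITGA8, ITGA9, ITGA11, ITGAD, ITGAL, ITGAM, ITGB2 and ITGB6, had at most 11 counts in any library. With JQ-1, 1 of the 8 rose and 4 fell, with a median of -0.83, where 35.7% of all tested genes rose and 37.6% fell. That median includes rare transcripts. In untreated cells ITGA2B averaged 0.057 CPM, ITGB7 0.27 CPM, ITGAX 0.73 CPM, ITGA7 1.11 CPM and ITGB4 2.3 CPM. ITGA4, a chain that binds fibronectin and VCAM1, averaged 29.3 ± 0.94 CPM in JQ-1 cells and 60.8 ± 5.8 CPM in untreated cells (-1.06, SE 0.062, edgeR adjusted p 3.47e-13), and ITGA1, a collagen-binding chain, averaged 22.4 ± 0.54 CPM in JQ-1 cells and 18.1 ± 2.2 CPM in untreated cells (0.30, SE 0.084, edgeR adjusted p 0.00266). With TP-472, ITGA4 fell (-0.35, SE 0.059, edgeR adjusted p 0.000209) and ITGB4, the laminin-binding partner of ITGA6, rose (0.49, SE 0.15, edgeR adjusted p 0.0189), where 17.3% of all tested genes rose and 14.5% fell. ITGA4 was called with the GC trend removed too (-0.27), and ITGB4 was not (0.24, edgeR adjusted p 0.352). ITGB4 averaged only 3.23 ± 0.31 CPM in TP-472 cells and 2.3 ± 0.30 CPM in untreated cells. Against the same untreated libraries it was also called higher with GSK-591 (0.51), GSK-484 (0.60), MS023 (0.54) and UNC0642 (0.64). With the GC trend removed it was called with none of these compounds. ITGA4 averaged 44.1 ± 0.76 CPM in GSK-591 cells, 51.3 ± 1.9 CPM in GSK-484 cells, 49.9 ± 2.7 CPM in MS023 cells and 60.8 ± 5.8 CPM in untreated cells, and was called lower with each of these compounds, in GSK-484 cells not with the GC trend removed.

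Among 22 tested ligands of integrins, 9 rose and 10 fell with JQ-1 (median -0.034), shares near the 35.7% and 37.6% of all tested genes. CYR61, a secreted matrix protein, averaged 2320 ± 42 CPM in JQ-1 cells and 774 ± 19 CPM in untreated cells (1.58, SE 0.028, edgeR adjusted p 2.45e-22), and THBS1, thrombospondin, averaged 1300 ± 4.2 CPM in JQ-1 cells and 622 ± 27 CPM in untreated cells (1.06, SE 0.044, edgeR adjusted p 9.68e-16). LAMB3, a laminin chain, averaged 75.9 ± 2.2 CPM in JQ-1 cells and 245 ± 6.9 CPM in untreated cells (-1.69, SE 0.037, edgeR adjusted p 1.12e-20), and LTBP1, which holds latent TGF-beta, fell by 0.92 on the log2 scale. With TP-472, 2 ligands rose and 5 fell (median -0.076; all tested genes 17.3% and 14.5%), and with the GC trend removed 0 rose and 7 fell (median -0.126), where 10.8% of genes were called. CTGF, a relative of CYR61, averaged 152 ± 1.3 CPM in TP-472 cells and 198 ± 1.0 CPM in untreated cells (-0.39, SE 0.031, edgeR adjusted p 1.28e-07) and FBN1, fibrillin, fell by 0.28, both also with the GC trend removed. TGFB1, the cytokine in the latent complex, was called higher with TP-472 (0.28, SE 0.071), GSK-591 (0.49, SE 0.072) and MS023 (0.50, SE 0.071), and of these with the GC trend removed only with GSK-591 (0.25) and MS023 (0.19). With JQ-1 it was called lower (-0.63, SE 0.076, edgeR adjusted p 1.15e-07), and also with the GC trend removed (-0.75). Of the 22 ligands, 4 rose and 1 fell with GSK-591 (all tested genes 18.1% and 14.8%), 2 rose and 2 fell with GSK-484 (11.4% and 7.66%), 5 rose and 1 fell with MS023 (22% and 20.6%), and 6 rose and 1 fell with UNC0642 (8.71% and 7.54%). Once the GC trend was removed, 2 rose and 2 fell with GSK-591 (12.5% of all genes called) and 0 rose and 1 fell with GSK-484 (0.305%). With MS023 1 rose and 1 fell (15.7%), and with UNC0642 1 rose and 1 fell (2.59%).

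Of 15 tested proteins that act on the integrin tail, 8 rose and 4 fell with JQ-1 (median 0.15), where 35.7% of all tested genes rose and 37.6% fell. FLNA, which ties beta tails to actin, averaged 3060 ± 70 CPM in JQ-1 cells and 1550 ± 111 CPM in untreated cells (0.98, SE 0.059, edgeR adjusted p 7.36e-13). TNS3, a tensin, averaged 16.7 ± 1.1 CPM in JQ-1 cells and 65.7 ± 3.8 CPM in untreated cells (-1.97, SE 0.057, edgeR adjusted p 9.01e-19), and FERMT1, a kindlin that activates integrins, fell by 1.27 on the log2 scale. With TP-472, 1 rose and 2 fell, where 17.3% of all tested genes rose and 14.5% fell: SHARPIN, an inhibitor of integrin activation, at 0.33 (SE 0.059), DAB2, an endocytic adaptor, at -0.17 (SE 0.048), and the GTPase RAP1B at -0.14 (SE 0.041). None of these was called with the GC trend removed, where 0 of the 15 rose and 3 fell and 10.8% of all genes were called. FERMT1 also fell with GSK-591 (-0.48, SE 0.095, edgeR adjusted p 0.000607), including with the GC trend removed (-0.47).

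All 26 kinases and adaptors of adhesion sites were tested. With JQ-1, 11 rose and 10 fell (median 0.051), shares near the 35.7% and 37.6% of all tested genes. SRC, a tyrosine kinase of adhesion sites, averaged 11.5 ± 0.68 CPM in JQ-1 cells and 47.6 ± 1.1 CPM in untreated cells (-2.05, SE 0.054, edgeR adjusted p 1.46e-19), and TGFB1I1, a paxillin relative, averaged 9.33 ± 0.87 CPM in JQ-1 cells and 33.9 ± 2.3 CPM in untreated cells (-1.86, SE 0.070, edgeR adjusted p 8.44e-17). NEDD9, a docking protein for such kinases, averaged 30.1 ± 0.71 CPM in JQ-1 cells and 12.4 ± 0.94 CPM in untreated cells (1.28, SE 0.076, edgeR adjusted p 4.66e-13), and the actin crosslinker ACTN4 rose by 0.97 (SE 0.039). With TP-472, 9 rose and 3 fell (all tested genes 17.3% and 14.5%), and after removal of the GC trend 0 rose and 2 fell, where 10.8% of genes were called. Those were LPP, a LIM protein of adhesion sites, with 309 ± 7.8 CPM in TP-472 cells and 446 ± 52 CPM in untreated cells (-0.53, SE 0.067, edgeR adjusted p 1.98e-05; GC trend removed -0.39), and LIMS1, which binds the kinase ILK (-0.23, SE 0.038; GC trend removed -0.11). With GSK-591 10 rose and 4 fell (all tested genes 18.1% and 14.8%), with GSK-484 9 rose and 2 fell (11.4% and 7.66%), with MS023 10 rose and 5 fell (22% and 20.6%), and with UNC0642 6 rose and 1 fell (8.71% and 7.54%). Without the GC trend 2 rose and 1 fell with GSK-591 (12.5% of genes called), 0 were called with GSK-484 (0.305%), 1 rose and 2 fell with MS023 (15.7%), and 1 rose and 0 fell with UNC0642 (2.59%).

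Of 13 tested membrane partners and trafficking proteins, 5 rose and 6 fell with JQ-1 (median -0.056), shares near the 35.7% and 37.6% of all tested genes. The tetraspanin CD82 averaged 25.4 ± 0.79 CPM in JQ-1 cells and 52.3 ± 3.3 CPM in untreated cells (-1.04, SE 0.057, edgeR adjusted p 1e-13), and CAV1, caveolin, averaged 52.7 ± 3.9 CPM in JQ-1 cells and 103 ± 3.4 CPM in untreated cells (-0.97, SE 0.056, edgeR adjusted p 2.98e-13). SNX17, which recycles integrins from endosomes, rose by 0.44 (SE 0.056), and SLC3A2, a membrane partner of ITGB1, by 0.43 (SE 0.051). With TP-472, 4 rose and 4 fell, where 17.3% of all tested genes rose and 14.5% fell. SLC3A2 (0.35, SE 0.051; GC trend removed 0.21), CAV1 (-0.34, SE 0.054; GC trend removed -0.295) and CD47, a partner of ITGB3 (-0.26, SE 0.035; GC trend removed -0.086, edgeR adjusted p 0.0469), were called both before and after the GC trend was removed, while CD151, a tetraspanin partner of ITGA3 (0.26, SE 0.046), was called only before. CD151 averaged 505 ± 11 CPM in MS023 cells and 380 ± 29 CPM in untreated cells (0.41, SE 0.046, edgeR adjusted p 8.24e-07), and 0.11 (edgeR adjusted p 0.0337) with the GC trend removed.

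The genes most like each member over the 21 libraries, by Pearson correlation of log2 CPM among genes of at least 3 CPM, are given with the same value over the 18 libraries without JQ-1, since JQ-1 libraries stood apart for several members. ITGA3 was closest to LAMB2, a laminin chain (0.995, and 0.962 without JQ-1), and ITGB3 to PSD3 (0.995, and 0.944). ITGB8 was closest to FGF5, a growth factor (0.989, and 0.962), and next to LPP (0.986, and 0.955), and ITGA5 to MMP2, a matrix metalloproteinase (0.984, and 0.922). ITGB1 was closest to PIK3CB (0.976, and 0.928), ITGA2 to NIN (0.975, and 0.951), ITGAV to CEP170 (0.968, and 0.962), ITGA6 to ATP11B (0.959, and 0.960), ITGB5 to PRKCSH (0.957, and 0.959) and ITGA10 to LRRC15 (0.918, and 0.756). Between members, ITGB3 and ITGB8 had the highest correlation (0.950, and 0.790 without JQ-1), ITGA3 and ITGB3 the lowest (-0.917, and 0.0215), and ITGAV and ITGB8 stood at 0.742, and at 0.925 without JQ-1. Other pairs of GC-poor members ran without JQ-1 from 0.622 (ITGA2 and ITGB1) to 0.910 (ITGA6 and ITGAV). The GC trend was not removed for these correlations. The points are libraries of the same 7 groups, so these correlations are descriptions.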

How the data were processed

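RNA of SK-MEL-147 cells was sequenced in 21 libraries. The authors deposited 1 table of expected counts per gene, made with Bowtie2 2.1.0 and RSEM 1.2.15 on hg38 per the submitters' processing notes; no source used here gives the annotation, read filters or strandedness. Expected counts split reads between like transcripts by estimate, so fractions occur, among the members in ITGB8 only. They were rounded to whole numbers here. Totals ran from 20978182 to 78776788, and 0 columns had no sample. Replicates had no identical libraries.

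Genes were kept by filterByExpr (minimum count 10, minimum total 15; 15062 genes). All 7 groups were fitted together with edgeR 4.0.16 (TMM scaling, quasi-likelihood test, prior count 0.125, Benjamini-Hochberg threshold 0.05; R 4.3.3), with a common coefficient of variation of 5.09%. The GC trend was a loess (span 0.3, 4 iterations) of log2 CPM (prior count 2) on the GC content of the longest coding GENCODE 29 transcript, removed through offsets for the 14119 genes (93.7%) with a value. DESeq2 1.42.0, other scalings, no filter, thinned counts, a 1.5-fold threshold, fits of 2 groups alone and leaving out each library were alternatives. The code was tested on simulated counts. Beyond the 10 members, the text names, per list and compound, up to 2 called genes with the largest rise and 2 with the largest fall among genes of at least 3 CPM in the higher group; some list genes are named for further compounds to set values side by side, and 1 gene that the rule names is not reported here. Genes most like a member had at least 3 CPM. The members and lists were chosen with earlier results of these data known. Start-site windows are RefSeq's, on GRCh38.p14. GENCODE 29 lists genes on the opposite strand over exons of ITGA5, ITGA6, ITGA10, ITGAV, ITGB1 and ITGB8, and without a stated strand setting reads of such pairs cannot be told apart.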

Additional observations from a re-analysis of the deposited data

How the results depend on the processing

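The number of the 10 members called depended on the fit in most comparisons. It stayed within 1.5 times under DESeq2, RLE scaling, total-count scaling, no filter and thinned counts in all 8 comparisons. With a 1.5-fold threshold it was 0 for TP-472, GSK-591, GSK-484, MS023 and UNC0642 and for GSK-591 against MS023 (edgeR, 0 also at an unadjusted p under 0.05), 4 for JQ-1 and 2 for TP-472 against JQ-1, where 4062 and 3809 of 15062 genes were called and at most 8 in the other comparisons. With the GC trend removed it was 4 for GSK-591 (12.5% of genes called) and 5 for MS023 (15.7%). For GSK-484 (0.305%) and UNC0642 (2.59%) it was 0, with 4 members each at an unadjusted edgeR p under 0.05. Against the other treated groups it was 3 for TP-472 (8.6% of genes called) and 3 for MS023 (18.9%). For GSK-591 (7.54%) and GSK-484 (0.126%) it was 0 there, with 3 members each at an unadjusted edgeR p under 0.05. With the GC trend removed as well it was 6 for TP-472 (12.1%) and 1 for GSK-591 (11.3%). It was then 3 for MS023 (14.4%) and 0 for GSK-484 (0.255%, 1 member unadjusted). With 2 groups alone it was 0 for GSK-484 (9 unadjusted), 2 for UNC0642 and 3 for GSK-591 against MS023, where 9, 1490 and 1311 genes of all tested were called. Leaving out 1 library gave 9 to 10 for TP-472, 6 to 9 for GSK-591, 3 to 9 for GSK-484, 8 to 9 for MS023, 9 to 10 for JQ-1, 4 for UNC0642, 7 to 8 for TP-472 against JQ-1 and 1 for GSK-591 against MS023. The lowest values for GSK-591 and GSK-484 came without untreated replicate 1. Of all 15062 genes, the fits without 1 library called 2791 to 4925 for TP-472, 3243 to 4937 for GSK-591 and 918 to 3166 for GSK-484. They called 4917 to 6167 for MS023, 10529 to 10757 for JQ-1 and 1096 to 2427 for UNC0642. For TP-472 against JQ-1 they called 10312 to 10430, and for GSK-591 against MS023 827 to 1200. Libraries with the same replicate number were at most weakly correlated in their deviations, from -0.125 to 0.115. For TP-472 (0.0459 to 0.0575) and GSK-591 (0.0178 to 0.0334) against untreated cells these correlations were small but all above 0. With the replicate block the counts were 10, 9, 7, 9, 10 and 4 for TP-472, GSK-591, GSK-484, MS023, JQ-1 and UNC0642. They were 9 for TP-472 against JQ-1 and 1 for GSK-591 against MS023. Of all 15062 genes, 4654, 4864, 2744, 6300, 11000 and 2354 were then called for these compounds. For TP-472 against JQ-1 it was 10864, and for GSK-591 against MS023 1383.

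Directions turned in 47 cases of a member that passed the threshold in either fit, and the cause was not tested. With the GC trend removed these were ITGA3 (-0.0741 with TP-472, -0.0793 with GSK-591, -0.0359 with GSK-484), ITGA5 (-0.0222 with TP-472, -0.0123 with MS023), ITGB1 (0.0399 with MS023) and ITGA6 (0.082 with JQ-1, where the median of all genes was 0.09). Against the other treated groups these were, with TP-472, ITGA3 (-0.0761) and ITGA5 (-0.0595), with GSK-591 ITGA3 (-0.0849) and ITGB8 (0.0819), with GSK-484 ITGA2 (0.0335), ITGA3 (-0.059), ITGA5 (-0.00375), ITGA6 (0.00228), ITGAV (0.068), ITGB5 (-0.0643) and ITGB8 (0.11), with MS023 ITGB1 (0.0111), with JQ-1 ITGA6 (0.0707), and with UNC0642 ITGA5 (-0.00849), ITGA6 (0.165), ITGAV (0.242), ITGB1 (0.0546), ITGB5 (-0.0489) and ITGB8 (0.206). With both they were, with TP-472, ITGA3 (-0.0834) and ITGA5 (-0.0651), with GSK-591 ITGA3 (-0.0899), ITGAV (0.00136), ITGB1 (0.0167) and ITGB8 (0.106), with GSK-484 ITGA3 (-0.0357), ITGAV (0.0308), ITGB5 (-0.058) and ITGB8 (0.0713), with MS023 ITGA5 (-0.0527), ITGA6 (0.0561) and ITGB1 (0.0827), with JQ-1 ITGA6 (0.174), and with UNC0642 ITGA6 (0.125), ITGAV (0.177), ITGB1 (0.000424), ITGB5 (-0.0233) and ITGB8 (0.14). With total-count scaling they were ITGB1 with JQ-1 (-0.0147) and ITGA6 in TP-472 against JQ-1 cells (0.00664). That scaling moved the share of calls that were higher, over all genes, to 32.1% from 55.1% for GSK-591, 41.2% from 59.8% for GSK-484, 38.9% from 51.7% for MS023, 37.3% from 48.7% for JQ-1, 29.7% from 53.6% for UNC0642, 63.8% from 51.8% for TP-472 against JQ-1 and 43.7% from 54.9% for GSK-591 against MS023. With 3 libraries a group and 10 to 100 counts, depth limits ITGA10 most.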
